A study of Danio rerio with 4 samples.

Results

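The genes of Wnt signalling were followed in GFP-negative cells of gastrula-stage zebrafish embryos. Of 101 gene rows whose symbol matched the families of Wnt ligands, receptors, antagonists, transducers and nuclear factors, 46 had at least 1 unique molecular identifier (UMI) over 4 libraries, out of 8640 genes with a UMI in all. These 46 members comprised 5 genes of ligands and ligand secretion, 8 receptors, 6 antagonists, 19 transducers and 8 nuclear factors. The 2 rows listed as FZD8 were left out, because the choice of members drops fzd8b and the symbol table does not tell the FZD8 paralogs apart. All embryos were of the AB strain and taken at 9 hours post fertilization. One group carried scattered cells with β-catCA, which is β-catenin in a constitutively active form, and the control group carried scattered cells with green fluorescent protein (GFP) in its place. Only the cells that lacked GFP were sorted for the libraries described here, so in both groups the cells measured were those sorted as free of the marked construct. Each group had 2 lots. No source used here gives the promoter that drove the constructs, the number of embryos in a lot or the distance of the sorted cells from marked cells.

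In the canonical Wnt pathway, a secreted Wnt protein binds a Frizzled receptor and an LRP co-receptor, Dishevelled is recruited, and the complex of Axin, APC, GSK3 and casein kinase 1 no longer marks β-catenin for destruction. β-catenin then enters the nucleus, joins Tcf/Lef factors and displaces Groucho/TLE corepressors. In the zebrafish gastrula this branch patterns the dorsoventral and head-to-tail axes. Another branch through Ror, Vangl and Prickle guides the convergence and extension movements.

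Gene UMIs totalled 65098 and 8403 in β-catCA mosaic lots 1 and 2, and 61304 and 59260 in control lots 1 and 2, so the shallow β-catCA lot 2 bears on every value of its group. One UMI stood for 15.2, 124.5, 16.1 and 16.5 counts per 1000000 gene UMIs (CPM, TMM-scaled) in these libraries in the same order, and a count of 0 allowed up to 3 UMIs, or 45.7, 373.4, 48.3 and 49.4 CPM. These floors are one-sided limits, and the two-sided 95% interval of a 0 ends higher, at 56.3, 459, 59.4 and 60.7 CPM. Such floors, and all intervals of single libraries given here, cover counting error only. So do the intervals of shares of UMIs pooled over the libraries, which leave out the spread between libraries. All 14 matched genes of a gastrula list, among them tbx16, cdx4 and SOX3, had a UMI, and they summed to 3733 and 2261 UMIs per 1000000 gene UMIs in β-catCA libraries and 4698 and 4624 in the controls. Enveloping layer markers stood by the same measure at 2105 and 2380 in β-catCA libraries and 1272 and 962 in the controls. These were 137 and 20 against 78 and 57 UMIs, most of them of krt8 (79 and 13 against 35 and 27) and krt18a.1 (34 and 4 against 19 and 18). The next most abundant showed no like excess: krt4 had 7 and 1 UMIs against 10 and 2, klf17 5 and 0 against 4 and 4, and krt5 5 and 0 against 4 and 2. The higher sum thus rests on krt8 and krt18a.1 and was not seen across the list. Of 15 markers 11 were found, and agr1, anxa1b, anxa1c and krt17 were at 0. Prechordal plate markers stood at 891 and 833 against 310 and 337.5 in the controls by the same measure, with 4 of 5 found and he1.1 at 0. These were 58 and 7 against 19 and 20 UMIs, most of them of ctslb and frzb. Yolk syncytial layer markers had at most 4 UMIs in a library, with mxtx2, HNF4A, apoa1b and apobb.1 at 0, and germ cell markers had at most 4, with DDX4 and gra at 0. The part of these cell types in the Wnt values was not tested, and in bulk libraries fewer cells of a type and less RNA per cell cannot be told apart.

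The comparison of the groups asks whether cells that share an embryo with β-catCA cells differ in their own Wnt machinery. None of the members that could be tested passed. On simulated counts with the means and depths of these data, the same test called 30.6% of 2-fold and 86.9% of 4-fold changes. These rates hold for 200 changed genes, with a mean of 1066 genes tested. The rate for the Wnt members alone, or with fewer genes changed, was not tested. Transcripts of the intracellular and nuclear machinery were found in all 4 libraries, while most Wnt ligand genes had no UMI. The filter for low counts kept 9 of the 46 members, and these held 55.8% of the 961 member UMIs. By edgeR's quasi-likelihood test 0 of the 9 were called, with 0 at an unadjusted p under 0.05, and DESeq2 and limma-voom also called 0. Over all 1071 genes tested, 0.84% were called (0.28% higher and 0.56% lower in the β-catCA mosaics), 10.5% had an unadjusted p under 0.05 and 48.2% had a positive fitted change. Of the 9 members, 6 had positive and 3 negative fitted log2 changes (β-catCA mosaic minus control mosaic), from -0.51 to 0.64. By mean CPM 3 of the 9 were higher in the β-catCA mosaics, since WLS, DVL3 and VANGL2 had a positive fitted change and a lower mean. Their median was 0.12, against -0.03 over all genes tested. The 37 members that did not enter are given as UMIs and from the same fit without the filter, where 0 of 46 members were called and 2 (4.35%) had an unadjusted p under 0.05. Over all 8640 genes of that fit 0 were called and 2.55% had such a p. The median log2 change there was -0.17 over all genes and -0.17 over the 46 members. Each of the 9 tested members had a lower change there than with the filter, such as WLS at 0.43 against 0.64. Changes without the filter therefore do not share a zero with those of the filtered fit.

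Detection differed between the classes. A UMI was found for 5 of 29 rows of ligand and secretion genes, 8 of 15 receptor rows, 6 of 20 antagonist rows, 19 of 26 transducer rows and 8 of 11 nuclear rows. Together 45.5% of the matching rows had a UMI, against 26.8% of the 32266 gene rows of the table. β-catCA lots 1 and 2 held a UMI of 36 and 15 members, and control lots 1 and 2 of 41 and 38. The low number in β-catCA lot 2 stood beside its depth: 31 members (67.4%) had 0 UMIs there, as did 74.5% of all genes with a UMI. Among the genes that entered the test, 4 of 9 members (44.4%) had 0 UMIs there, against 13.4% of all 1071.

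**Figure D1:**
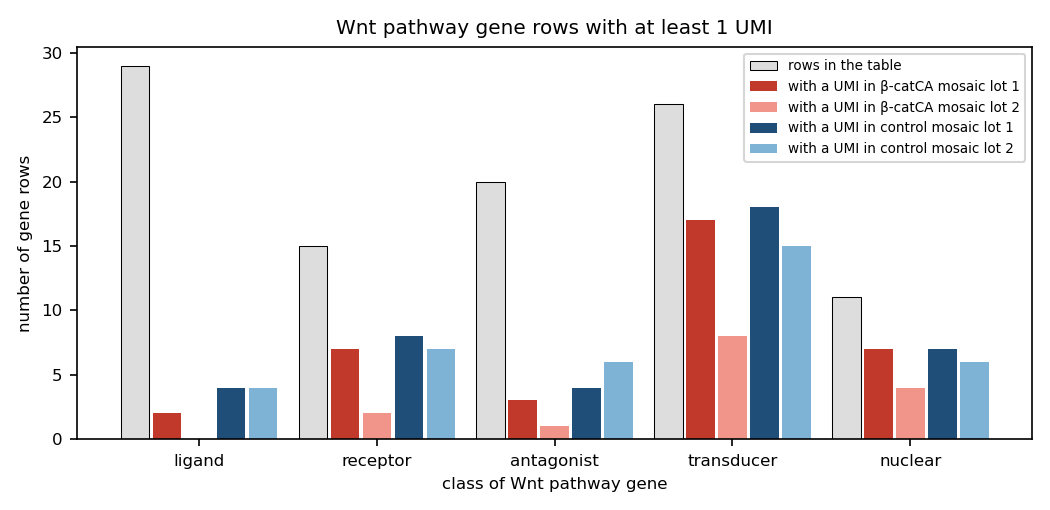
Number of gene rows in each class of Wnt pathway genes (y axis): grey bars give all rows in the table, coloured bars the rows with at least 1 UMI in each library. Of 29 ligand and secretion rows, at most 4 were found in a library, whereas 18 of 26 transducer rows were found in control lot 1; β-catCA lot 2, with 8403 gene UMIs, was lowest in every class.

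Among the genes of ligands and their secretion, WLS held 82.4% of 108 UMIs. WLS (ENSDARG00000009534) encodes the carrier that brings Wnt proteins to the cell surface. It had 45 and 0 UMIs in β-catCA lots 1 and 2 and 22 in each control lot, which is 686, 0, 354 and 362 CPM. The control lots were alike, and the β-catCA lots stood on either side of them. The 95% Poisson intervals of the β-catCA lots did not meet, since that of lot 1 began at 500.5 CPM and that of lot 2 ended at 459 CPM. WLS is 1 of 46 members looked at, and these intervals are not adjusted for that number. The group means were 343 ± 485 CPM for β-catCA mosaics against 358 ± 5.69 CPM for controls (SD, n = 2 each). The fitted log2 change was 0.64 (SE 0.44, 95% interval -0.25 to 1.54, edgeR adjusted p = 0.68), positive where the means are not, because edgeR weighs libraries by depth. Without β-catCA lot 2 it was 0.92 (SE 0.39, edgeR unadjusted p = 0.017, adjusted p = 0.31), and without β-catCA lot 1 it was -6.98 (SE 2.86, edgeR unadjusted p = 0.017, adjusted p = 0.39), a size that depends on the prior count. In both fits the 1 β-catCA library left is assumed to vary like the controls, and the direction is set by which library is left out.

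The other secretion gene found, PORCN, which encodes the enzyme that attaches the lipid of Wnt proteins, had 1 UMI. The most abundant ligand gene was wnt11f2 (ENSDARG00000004256), a ligand of the convergence and extension branch. It had 4 and 0 UMIs in β-catCA libraries and 4 and 7 in the control lots, or 61.0, 0, 64.4 and 115 CPM. Both β-catCA lots were below both controls, but β-catCA lot 1 and control lot 1 had the same 4 UMIs, and the log2 change without the filter was -0.85 with an interval from -2.74 to 1.05 (edgeR adjusted p = 0.77). The ligand genes wnt4b and WNT8B had 2 and 1 UMIs, all in controls. The remaining 24 rows of this class had 0 UMIs in all 4 libraries, among them WNT11, WNT5B, WNT3A and both rows listed as WNT8A, a ligand known from the ventrolateral margin of the gastrula. A row at 0 could have held up to 15.3 CPM over the 4 libraries together. The libraries read only the 3′ end of a transcript, and the row for no feature held 22.0% to 35.96% of all counts of a library; the part of 3′ ends outside the annotation in these zeros was not tested.

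The receptor genes summed to 76 and 3 UMIs in β-catCA libraries and 66 and 64 in the control lots, or 1159, 373, 1063 and 1054 CPM. The deeper β-catCA lot was thus close to the controls, and the interval of the shallow lot, 77.0 to 1091 CPM, included both control values. LRP6 (ENSDARG00000100143), the co-receptor that canonical signalling needs, had 19 and 2 UMIs in β-catCA libraries and 14 and 18 in the controls. Its levels of 290, 249, 225 and 296 CPM overlapped, and its log2 change was 0.12 (95% interval -0.88 to 1.13, edgeR adjusted p = 0.96). The related LRP5 had 4 and 0 UMIs against 5 and 0, so LRP6 supplied 85.5% of the pooled UMIs of this pair (95% exact binomial interval 74.2% to 93.1%). Its share was 73.7% in control lot 1 and 18 of 18 UMIs in control lot 2, both outside that interval.

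Both rows listed as FZD7, a Frizzled receptor used in gastrulation movements, were among the more abundant members. The row ENSDARG00000060004 had 16 and 0 UMIs in β-catCA libraries and 24 and 13 in the controls, or 244, 0, 386 and 214 CPM, with a log2 change of -0.51 (95% interval -1.60 to 0.58, edgeR adjusted p = 0.84). The row ENSDARG00000027589 had 15 and 1 UMIs against 3 and 9, or 229, 124.5, 48.3 and 148 CPM, and a log2 change of 0.95 without the filter (95% interval -0.46 to 2.37, edgeR adjusted p = 0.77). The groups overlapped for both rows. The balance between the rows varied within the controls: the first row held 88.9% of their joint UMIs in control lot 1 (95% exact binomial interval 70.8% to 97.6%), 59.1% in control lot 2 (36.4% to 79.3%) and 51.6% in β-catCA lot 1 (33.1% to 69.8%). Reads of near-identical copies could be split between rows by the authors' counting, and whether this holds for the FZD7 rows was not tested.

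ROR2 (ENSDARG00000076227), a Wnt receptor kinase of the movement branch, had 11 and 0 UMIs in β-catCA libraries and 9 and 14 in the controls, or 168, 0, 145 and 231 CPM. Its log2 change was -0.35 (95% interval -1.59 to 0.89, edgeR adjusted p = 0.92). The Frizzled genes FZD3 and FZD10 had 16 and 11 UMIs in all. FZD2 had 0 UMIs in both β-catCA lots and 4 and 1 in the controls, with an unadjusted p of 0.049 and an adjusted p of 0.77 in edgeR without the filter. The 0 in β-catCA lot 1 allowed up to 45.7 CPM and that in lot 2 up to 373.4 CPM. The control lots stood at 64.4 and 16.5 CPM, so these counts cannot decide whether FZD2 differs.

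The antagonists, which hold the signal back outside or inside the cell, summed to 351 and 124.5 CPM in the β-catCA lots, from 23 and 1 UMIs, and to 370.3 and 642 CPM in the control lots, from 23 and 39 UMIs. Both β-catCA values were below both controls, but β-catCA lot 1 and control lot 1 had the same number of UMIs and their intervals, 222 to 526 and 235 to 556 CPM, nearly coincided. The sum leaves out frzb, a secreted Wnt decoy whose symbol is outside the member rule. frzb went the other way, at 320.2 and 373 CPM in the β-catCA lots against 80.5 and 181 CPM in the controls. NKD1 (ENSDARG00000020053), an intracellular inhibitor that binds Dishevelled and is itself induced by the pathway, had 10 and 1 UMIs in β-catCA libraries and 9 and 15 in the controls. Its 152 and 124.5 CPM overlapped with 145 and 247 CPM, and its log2 change without the filter was -0.55 (95% interval -1.91 to 0.82, edgeR adjusted p = 0.77). SFRP1 (ENSDARG00000035521), a secreted decoy that binds Wnt proteins, had 10 and 0 UMIs against 8 and 14, or 152, 0, 129 and 231 CPM. The Lrp5/6 antagonist gene dkk1b (ENSDARG00000045219), which is known from the prechordal plate, had 3 and 0 UMIs against 4 and 5. SFRP5 had 0 UMIs in both β-catCA lots and 2 in each control lot, under the floors of all 4 libraries. nkd3 and nkd3l had 2 and 1 UMIs, all in control lot 2. The feedback genes ZNRF3 and NOTUM, and the rows dkk1a and dkk2, had 0 UMIs.

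**Figure D2:**
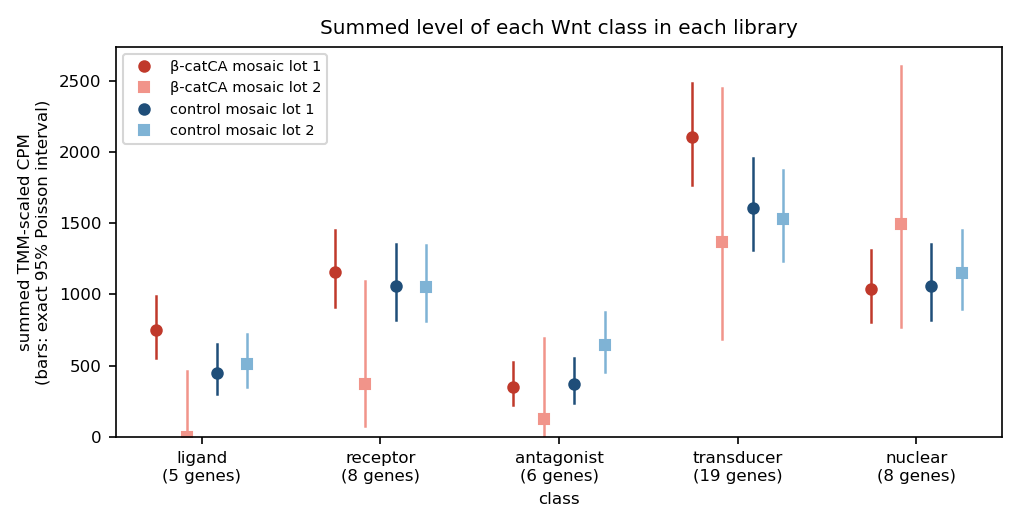
Summed TMM-scaled CPM of each class (y axis) in each library, with exact 95% Poisson intervals of the summed counts. The 2 control lots lie close together in every class but the antagonists (370.3 and 642 CPM), and the bar of β-catCA lot 2 reaches both control values in every class but ligand and secretion, where it ends at 459 CPM, under the 510.4 CPM of control lot 2.

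The transducers held 35.6% of the member UMIs, more than any other class, but they are also the largest class, with 19 of the 46 members. Their sums were 2104, 1369, 1610.0 and 1531 CPM in β-catCA lots 1 and 2 and control lots 1 and 2. The controls lay between the β-catCA lots. CSNK1A1 (ENSDARG00000052674), the casein kinase that primes β-catenin for GSK3, had 32 and 3 UMIs in β-catCA libraries and 25 and 19 in the controls, or 488, 373, 402 and 313 CPM. Its log2 change was 0.38 (95% interval -0.48 to 1.25, edgeR adjusted p = 0.85). CSNK1A1 supplied 64.2% of the UMIs of the casein kinase 1 members (95% exact binomial interval 55.1% to 72.7%), and this share ran from 59.4% to 66.7% over the 4 libraries. CSNK1G1 had 0 UMIs in both β-catCA lots and 4 and 2 in the controls, an unadjusted p of 0.031 and an adjusted p of 0.77 in edgeR without the filter. CSNK1D had the other direction, with 8 and 2 UMIs against 2 and 7 and both β-catCA levels above the controls, but its interval in the same fit was -0.88 to 2.35.

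Of the destruction complex, AXIN1 (ENSDARG00000102964), its scaffold, had 16 and 1 UMIs in β-catCA libraries and 7 and 8 in the controls. Its levels were 244 and 124.5 CPM against 113 and 132 CPM, so the groups overlapped through β-catCA lot 2, where 1 UMI was found. The log2 change without the filter was 0.72 (95% interval -0.63 to 2.07, edgeR adjusted p = 0.77). Its paralog AXIN2, a feedback target of the pathway, had 2 and 0 UMIs against 1 and 0, so AXIN1 held 91.4% of the UMIs of the pair (95% exact binomial interval 76.9% to 98.2%). The kinase genes GSK3A (ENSDARG00000015681) and GSK3B (ENSDARG00000017803) stood close to each other. This GSK3A row had 7 and 1 UMIs in β-catCA libraries and 7 and 5 in the controls, and GSK3B had 7 and 0 against 4 and 6. Another row listed as GSK3A (ENSDARG00000029501) had 1 UMI, in β-catCA lot 1, and gsk3bb had 0. APC, the scaffold that holds β-catenin, had 6 UMIs in all.

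Of the Dishevelled genes, which relay the signal from Frizzled in both branches, DVL3 (ENSDARG00000015707) had 13 and 1 UMIs in β-catCA libraries and 10 and 13 in the controls, or 198, 124.5, 161 and 214 CPM. Its log2 change was 0.01 (95% interval -1.10 to 1.11, edgeR adjusted p = 0.99), beside means of 161 against 188 CPM. dvl2 (ENSDARG00000056184) had 8 and 1 UMIs against 2 and 10, so the control lots differed more from each other than the groups did, and both rows listed as DVL1 had 0 UMIs. Among the planar polarity genes of the movement branch, VANGL2 (ENSDARG00000027397) had 13 and 0 UMIs in β-catCA libraries and 11 and 5 in the controls, or 198, 0, 177 and 82.3 CPM. Its fitted log2 change was 0.40 (95% interval -0.999 to 1.80, edgeR adjusted p = 0.92), while its mean was lower in β-catCA libraries, at 99.1 against 129.7 CPM. PRICKLE1 had 2 rows: ENSDARG00000040649 with 9 and 1 UMIs against 9 and 8, and ENSDARG00000045694 with 12 and 0 UMIs against 6 and 4. The levels of the first, 137 and 124.5 CPM against 145 and 132 CPM, lay close together, although the 1 UMI of β-catCA lot 2 has an interval from 3.15 to 694 CPM.

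Nuclear factors supplied 12 of the 27 member UMIs of the shallow library. Their sums were 1037, 1494, 1063 and 1153 CPM in β-catCA lots 1 and 2 and control lots 1 and 2. tle2a (ENSDARG00000042484), a Groucho-type corepressor, was the most abundant member, at rank 290 of the 8640 genes by control mean, where the members' median rank was 1978. It had 28 and 5 UMIs in β-catCA libraries and 30 and 37 in the controls, or 427, 622, 483 and 609 CPM. The groups overlapped, with a log2 change of -0.25 (95% interval -1.07 to 0.58, edgeR adjusted p = 0.91). Its relatives tle2b and tle2c had 1 and 0 UMIs, and the 2 rows listed as TLE3 had 14 and 6.

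TCF7L1 (ENSDARG00000038159), the Tcf factor that represses Wnt targets in the absence of β-catenin, had 21 and 4 UMIs in β-catCA libraries and 17 and 20 in the controls, or 320.2, 498, 274 and 329 CPM. Its log2 change was 0.21 (95% interval -0.74 to 1.16, edgeR adjusted p = 0.94). With its paralog tcf7l1b, at 6 and 0 UMIs against 5 and 5, it kept a like share in the deeper libraries: TCF7L1 held 77.8%, 77.3% and 80.0% of their joint UMIs in β-catCA lot 1 and control lots 1 and 2, and all 4 UMIs in β-catCA lot 2. LEF1 (ENSDARG00000031894), an activating partner of β-catenin, had 5 and 2 UMIs in β-catCA libraries and 4 and 2 in the controls. Both β-catCA levels of LEF1, 76.2 and 249 CPM, were above the 64.4 and 32.9 CPM of the controls, though lot 1 by 1 UMI, and its interval without the filter was -1.06 to 2.65 (edgeR adjusted p = 0.77). TCF7L2 had 4 UMIs in all, and TCF7 had 0.

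**Figure D3:**
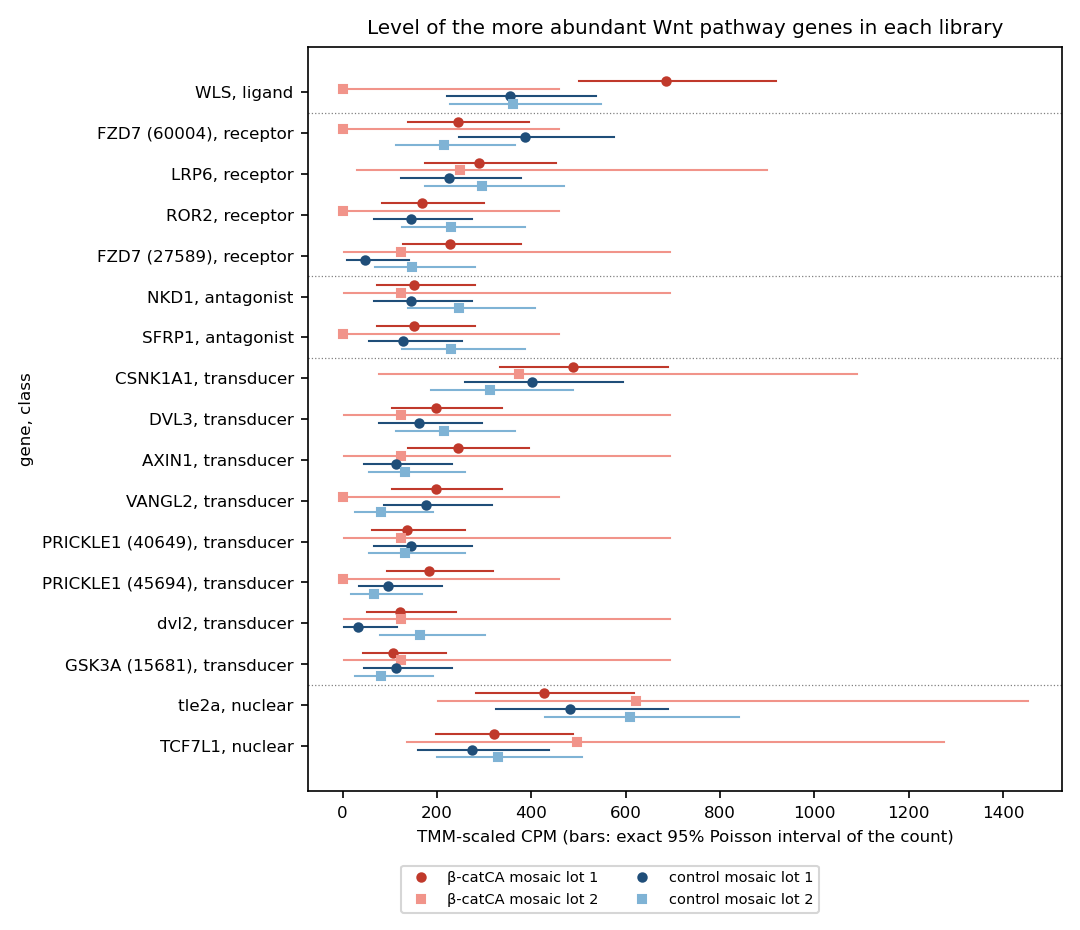
TMM-scaled CPM (x axis) of the 17 members with at least 20 UMIs, by library, with exact 95% Poisson intervals of each count; the digits in brackets are the end of the gene ID where a symbol has several rows. The interval of WLS in β-catCA lot 1, at 686 CPM, lies above that in β-catCA lot 2, and the long bars are those of β-catCA lot 2.

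Counted over all 46 members, both β-catCA lots were above both controls for 2 genes, CSNK1D and LEF1, and below for 9. Among the 8640 genes with a UMI, 6.16% were above and 18.5% below, so the members' 4.35% and 19.6% were near the background. Among the 9 tested members the groups overlapped in every case, while 40.8% of all tested genes had groups that did not overlap. In 4 of the 9, β-catCA lot 2 was at 0 UMIs, as in 13.4% of all tested genes. The members found in no β-catCA lot numbered 9 (19.6%) and those found in no control lot numbered 2 (4.35%). Over all 8640 genes these shares were 23.4% and 14.2%, and the β-catCA libraries held 73501 gene UMIs together and the controls 120564.

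Around the members, 42 further genes of the pathway were matched from a list, and 28 had a UMI. The test took in 5 of them and called 0 in either direction. Beside 10.5% of all genes tested, 1 of the 5 had an edgeR unadjusted p under 0.05. That gene was frzb, a secreted Wnt decoy also listed as a prechordal plate marker, with 21 and 3 UMIs in β-catCA libraries and 5 and 11 in the controls. Its levels of 320.2 and 373 CPM were above 80.5 and 181 CPM, and its fitted log2 change was 1.31 (SE 0.54, edgeR adjusted p = 0.39). Both β-catCA lots were also above both controls for 17.2% of all tested genes. pygo2, whose protein links β-catenin to chromatin, had 14 and 0 UMIs against 19 and 17 and a log2 change of -0.65 (95% interval -1.76 to 0.45). CDC42, a small GTPase of the movement branch, had 20 and 1 UMIs against 12 and 6 and a change of 0.92 (95% interval -0.17 to 2.01). The other tested genes were CTNNB1, with a change of 0.12 (SE 0.27), and rhoaa, with 0.23 (SE 0.39). The mean of rhoaa had the other direction, 466 CPM in β-catCA libraries against 578 CPM in controls. The R-spondin rows RSPO1, RSPO2 and RSPO3 had 0, 3 and 2 UMIs in all, and the R-spondin receptor genes LGR4 and lgr6 had 0.

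A list of Wnt-responsive genes and of patterning genes that act beside them had 39 entries. Of these, 5 were left out as members and 6 because they matched several rows. The list had 22 matched entries that are no members, of which 19 had a UMI and 11 were tested. The test called 0 in either direction, and 1 of the 11 had an edgeR unadjusted p under 0.05, beside 10.5% of all genes tested. All 11 fitted changes were negative, with a median of -0.33 against -0.03 over all tested genes, of which 48.2% had a positive change. Negative changes numbered 9 of 11 without β-catCA lot 2 and 7 of 11 without control lot 2. The gene with the small p was tbxta, a T-box gene of notochord and tailbud, with 22 and 0 UMIs in β-catCA libraries, 29 and 45 in the controls and a fitted log2 change of -1.07 (SE 0.46; edgeR adjusted p = 0.40). Another T-box gene of the mesoderm, tbx16, had 80 and 5 UMIs against 88 and 93, or 1220.0 and 622 CPM against 1417 and 1531 CPM. Both its β-catCA lots were below both controls, as for 23.6% of all tested genes. Its change was -0.44 (95% interval -1.04 to 0.16, edgeR adjusted p = 0.67). The presomitic gene msgn1 overlapped, with 1784 and 1120.3 CPM against 1529 and 2157 CPM and a change of -0.19 (95% interval -0.77 to 0.38). tbx6, also a mesodermal T-box gene, had 15 and 0 UMIs against 11 and 23 and a change of -0.48 (SE 0.56). The neural SoxB gene sox19a had 381 and 373 CPM against 773 and 510.4 CPM, a change of -0.75 (95% interval -1.59 to 0.08, edgeR adjusted p = 0.53). SP5, cdx4, CCND1, GBX1, vox and ID3 had changes between -0.37 and -0.05. For SP5 and ID3 the mean CPM had the other direction, 526 against 475 CPM and 185 against 179 CPM. The list shares 5 of its tested genes (tbxta, tbx16, cdx4, vox and sox19a) with the gastrula list, whose sum was lower in both β-catCA lots. These shared genes supply most of that sum, so it is no separate measure beside their changes. In β-catCA lots 1 and 2 and control lots 1 and 2, tbx16 alone gave 80, 5, 88 and 93 of its 243, 19, 288 and 274 UMIs. The part of the cell types in the changes of the list was not tested.

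**Figure D4:**
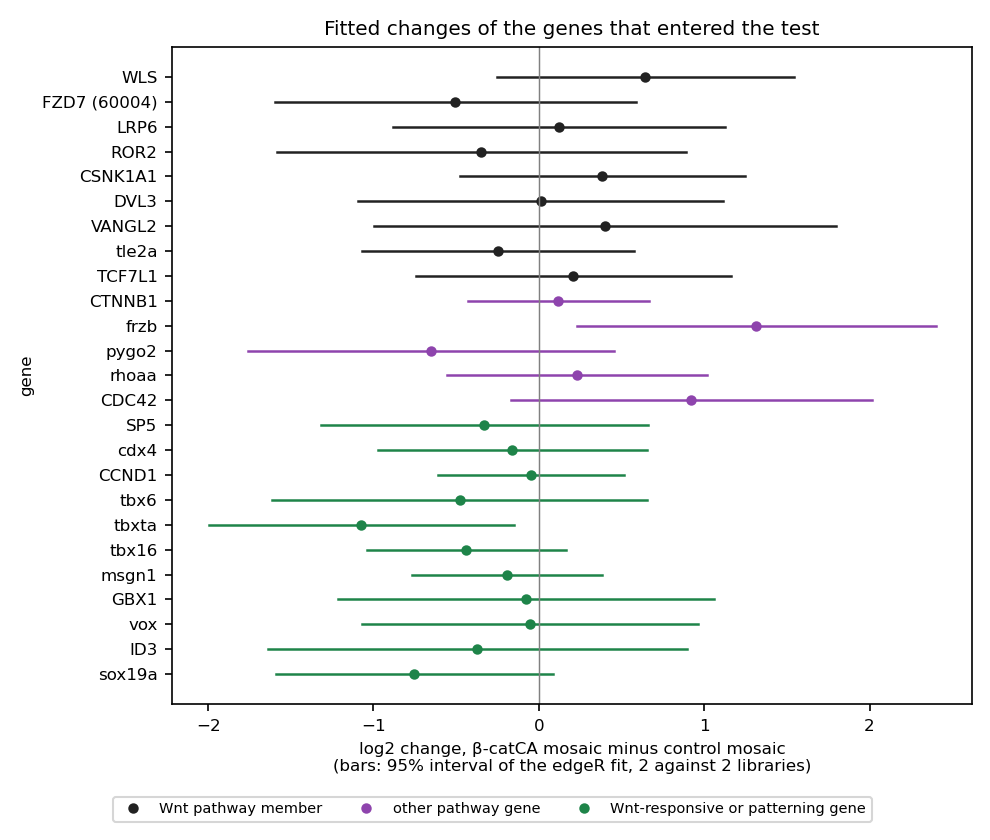
Fitted edgeR log2 changes (x axis, β-catCA mosaic minus control mosaic) of the genes that entered the test. They are 9 members, 5 other pathway genes and 11 Wnt-responsive or patterning genes. Bars are approximate 95% intervals worked out from the F statistic of the fit. All intervals of the members include 0, from FZD7 at -0.51 to WLS at 0.64, and those of frzb and tbxta do not include 0 before adjustment. Neither passed after adjustment, and 10.5% of all tested genes had an edgeR unadjusted p under 0.05.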

How the data were processed

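TRIzol extracts of the sorted cells went into CEL-Seq2 library preparation, per the labels' protocols. The deposited table holds whole UMI counts for each Ensembl gene, not normalized by the authors, with 1 column per library; counts of 3′ ends do not grow with transcript length. Bowtie2 2.3.1, HTSeq 0.6.1 and GRCz10 are named, per the submitters' processing notes; no source used here gives the annotation, the use of strand or the UMI rule. The 5 rows that are no genes held 52.4% to 58.3% of the counts and were left out.

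Members were matched by symbol; symbols in capitals are human-style names of zebrafish genes. Members, classes and lists were chosen with earlier results of these data known. Genes were tested with edgeR 4.0.16 (R 4.3.3): TMM factors, filterByExpr (minimum count 10), the robust quasi-likelihood test (robust=TRUE), then Benjamini-Hochberg adjustment over all 1071 genes at 0.05. Each log2 change is the β-catCA group minus the control group. edgeR itself gave no standard error (SE) or interval for it. The SE was worked out as the absolute log2 change over the square root of the quasi-likelihood F statistic. The 95% interval extends the SE by t quantiles to both sides of the change, and both are approximate. Every member with at least 20 UMIs or in the fit was named, then up to 4 others per class by UMIs, and those in 1 group only with at least 5 UMIs; further members were named after their values were seen. Listed genes were named where tested, and some others were named after their values were seen. Alternatives used other factors and filters, DESeq2 1.42.0, limma-voom 3.58.1, a lot block and left-out libraries. The procedure was tested on simulated data. Whether lots were separate clutches is not in the labels; p-values therefore reflect only the spread between these libraries, which may be technical. No library was a copy of its partner: chi-square per degree of freedom was 2.39 for the β-catCA lots and 1.75 for the control lots. An exact test of 2 against 2 libraries cannot give a two-sided p under 0.333 and was not used for single values.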

Additional observations from a re-analysis of the deposited data

Results flagged for a closer look

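Outside the gene counts, the row of unaligned tags held 35.8% of all counts of β-catCA lot 2, above the 21.1% and 22.9% of the control lots, while β-catCA lot 1 stood at 19.9%. β-catCA lot 2 also gave the 0 UMIs of WLS, VANGL2, ROR2 and 1 FZD7 row. These are 4 of the 9 tested members (44.4%), where 13.4% of all 1071 tested genes had 0 UMIs in that library. The part of the unaligned tags in those zeros was not tested.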

How the results depend on the processing

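No tested member passed under any alternative run. Of the 9, 4 kept their sign in all that could test them: TCF7L1, CSNK1A1, ROR2 and the FZD7 row ENSDARG00000060004. Their changes came as near to 0 as 0.03, 0.04, -0.005 and -0.008, in the same order. VANGL2 was negative in 4 of 11, among them the replicate block (-0.007). The count over all genes, 9 (3 higher and 6 lower), was 1 with upper-quartile factors (0 higher and 1 lower), 2 with library totals alone (0 and 2), 0 with no filter (220 at an unadjusted p under 0.05), 2 with at least 10 UMIs in every library of a group, 1 by DESeq2, 2 by limma-voom and 1 to 15 with single libraries left out (4 and 15 without β-catCA lots 1 and 2, 2 and 1 without control lots 1 and 2). The lot number as a replicate block gave 2 calls and 0 members. Deviations of same-numbered libraries had a correlation of -0.01 across genes. Counting error in the shallow β-catCA lot 2 could hide a shared lot effect, so this value cannot decide whether the numbers pair the libraries. The median log2 change of the members that entered, 0.12 for 9, ran from -0.66 without β-catCA lot 1 (11 members) to 0.27 without control lot 2. The members that enter change with each run. For the same 9 members these medians were -0.60 and 0.20. The log2 ratio of summed CPM ran with single libraries left out from -1.503 to 0.13 for receptors, -2.02 to -0.53 for antagonists, -0.20 to 0.42 for transducers and -0.49 to 0.19 for all members, the lowest each without β-catCA lot 1; for nuclear factors it ran from -0.10 without β-catCA lot 2 to 0.43 without β-catCA lot 1; for ligand and secretion genes it ran from -0.45 to 0.64, with no value without β-catCA lot 1, since lot 2 had 0 UMIs. The cause was not tested. At this depth 37 of 46 members did not pass the filter for low counts.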
